A study of Rattus norvegicus with 12 samples.

Results

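The genes described here encode the proteins that receive, clear and anchor glycine at inhibitory synapses: the receptor alpha subunits Glra1, Glra2 and Glra3, the beta subunit Glrb, the transporters Slc6a5 (GlyT2) and Slc6a9 (GlyT1), and the anchoring protein gephyrin (Gphn). They were chosen by name, and each was taken from the probe that carried its symbol and no other. Of the 7 listed genes, 6 were measured, each by 1 probe, among 18166 genes in all, and Glra3 was not analysed here. Expression was measured on 12 arrays from rats of the strain labelled SD, each made from the inferior colliculus (IC), a relay of the ascending auditory pathway in the midbrain. Control rats had a sham operation, an incision behind the ear that left the bulla closed, and single-sided deaf rats had the right cochlea ablated. Tissue was taken 2 weeks later, from 20 rats per arm, and the 4 groups of 3 arrays are left control, left deaf, right control and right deaf. The left IC lies opposite the ablated ear and the right IC on its side. The labels state neither age nor sex. They leave unstated whether an array is of a single rat or of pooled tissue, and whether left and right arrays came from the same rats. The p-values therefore rest only on the variation among arrays, which could include technical variation.

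Glycine receptors are chloride channels built from alpha subunits, to which glycine binds, and beta subunits, which bind gephyrin, the scaffold that holds receptors under the nerve terminal. GlyT2 sits in glycinergic nerve terminals and refills them with glycine, whereas GlyT1 is found mainly on astrocytes and clears glycine from the synapse and its surroundings. In the auditory brainstem glycinergic neurons are abundant, and the IC is known to receive glycinergic axons from nuclei of the lateral lemniscus and the superior olive. The comparison asks whether the loss of input from the right ear was accompanied by a different level of these genes in the IC of either side.

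The labels conflict over the tissue. Hippocampus is named in the title of the series and in sample descriptions, which also call the deaf arrays a noise group, whereas titles, source names and tissue entries name IC. Of 13 markers of the tectum and midbrain, 11 had a mean above the median array value of 5.34 (log2 intensity), among them Tfap2d at 9.60, Gata3 at 7.83 and Otx2 at 7.55. Neurod6, a marker of hippocampal and cortical excitatory neurons, was at 3.40, below the lower quartile of 3.78, and Tbr1 was at 4.42. Of the 11 measured markers of hippocampus and forebrain, 6 had a mean above the median array value, among them Zbtb20 at 8.51. That median is over all 29489 probes, with or without a symbol. Of the 18166 genes, 38.6% had a mean below 5.31, the mean of Slc6a5. A mean above the median array value was thus common among all genes. Correlations between arrays lay between 0.982 and 0.993, and the arrays of the right control group resembled each other least, with mean correlations to their own group of 0.985, 0.987 and 0.985, against 0.989 to 0.992 elsewhere.

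None of the 6 genes passed the threshold of an adjusted p under 0.05 in any of the 6 comparisons, where 0 of 18166 genes (0%) passed in each (limma, Benjamini-Hochberg over all genes). An unadjusted p under 0.05 was reached by 0 of the 6 genes in the left IC, where 3.69% of all genes reached it, and by 1 gene, Glra1, in the right IC (4.31% of all genes) and in the mean of both sides (4.53%). The alpha subunit gene Glra1 and the GlyT2 gene Slc6a5 had lower means in deaf than in control rats on both sides, and for the other 4 genes deaf and control means were at most 0.12 apart on the log2 scale. Without the array right control 1 the right difference moved from -0.64 to 0.069 for Slc6a5 and from -0.40 to -0.23 for Glra1. On that array Slc6a5 lay 1.60 (log2) above its next highest array and Glra1 was highest as well. The left differences, -0.40 for Slc6a5 and -0.13 for Glra1, were the same without it. Omission of other right arrays also moved the right differences.

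**Figure D1:**
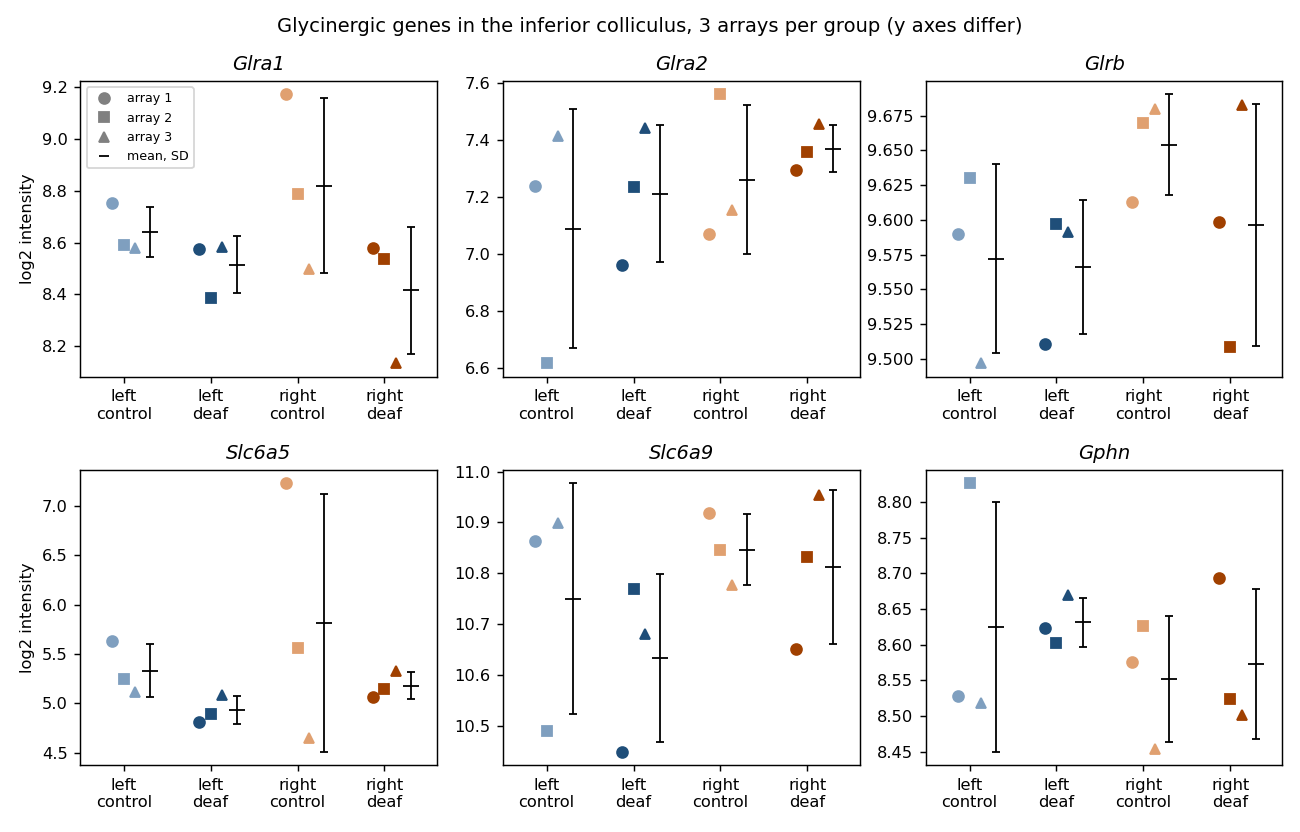
Log2 intensity of the 6 measured genes on each array, by side and surgery. Symbols stand for the array number within a group and black bars for the mean and SD of 3 arrays. Each panel has its own axis, since the levels of different probes cannot be compared. Right control 1 stands above all other arrays for Slc6a5 (7.23) and Glra1 (9.17), and in the other 4 panels deaf and control arrays overlap on each side.

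Glra1 (Entrez 25674) encodes the alpha 1 subunit, the main adult alpha subunit of the brainstem and spinal cord. In the right IC its log2 intensity was 9.17, 8.79 and 8.50 on the 3 control arrays and 8.58, 8.54 and 8.13 on the 3 deaf arrays. The highest deaf array lay above the lowest control array, so the groups overlapped. The mean was 8.82 ± 0.34 (SD, n = 3) in right control and 8.42 ± 0.25 in right deaf rats, which gives deaf minus control -0.40 (SE 0.16, limma adjusted p = 1.00). In linear intensity this is -24.4%, with a 95% interval of -40.9% to -3.39%. In the left IC the control arrays were at 8.75, 8.59 and 8.58 and the deaf arrays at 8.57, 8.39 and 8.58, a difference of -0.13 (SE 0.16, 95% interval -0.48 to 0.23). Averaged over both sides the difference was -0.26 (SE 0.11, 95% interval -0.52 to -0.014, limma adjusted p = 0.998). The left and right differences were not shown to be unequal, as the interaction was 0.28 (SE 0.23, limma adjusted p = 1.00). Its group means ran from right control (8.82) through left control (8.64) and left deaf (8.51) to right deaf (8.42), and neighbours in that order differed by less than the SD of the wider group except left control and left deaf, whose arrays overlapped.

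Without right control 1 the right-side difference of Glra1 was -0.23 (SE 0.15), and without right deaf 3 it was -0.26. Without right control 3 it was -0.56. Only the 6 right arrays enter this difference: with each left out in turn its direction was the same in 6 of 6 fits, and its unadjusted p was under 0.05 in 4 of them, all but those without right control 1 or right deaf 3. The mean over both sides was -0.35 with right control 3 left out and -0.18 with right control 1 left out, and its unadjusted p was under 0.05 in 5 of the 12 fits. The left difference was -0.061 without left deaf 2 and -0.070 without left control 1.

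Glra2 (Entrez 24397) encodes the alpha 2 subunit, which prevails before birth and is replaced by alpha 1 in much of the hindbrain as animals mature. Its control values were 7.24, 6.62 and 7.41 on the left and 7.07, 7.56 and 7.15 on the right. Its deaf values were 6.96, 7.24 and 7.44 on the left and 7.29, 7.36 and 7.46 on the right. Left control 2 was the lowest array, and the groups overlapped on both sides. The difference was 0.12 (SE 0.20) on the left and 0.11 (SE 0.20) on the right. The left difference was -0.11 without left control 2 and 0.28 without left control 3, so its direction turned with the control array left out. The right difference was 0.013 without right control 1 and 0.26 without right control 2. Its group means ran from right deaf (7.37) through right control (7.26) and left deaf (7.21) to left control (7.09), each step smaller than the spread of the arrays.

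Glrb (Entrez 25456) encodes the beta subunit that links receptors to gephyrin. It varied least of the 6 genes: the 12 arrays lay between 9.50 and 9.68, and its within-group SD of 0.063 was exceeded by 17415 of the 18166 genes. Among the genes nearest to Glrb in mean level, 18.1% had a smaller SD. The left groups were at 9.57 ± 0.068 (SD, n = 3) for control and 9.57 ± 0.048 for deaf. The right groups were at 9.65 ± 0.036 and 9.60 ± 0.087. Both pairs of groups overlapped, with differences of -0.0059 (SE 0.077) on the left and -0.057 (SE 0.077) on the right. Averaged over both sides, deaf intensity differed by -2.17%, with a 95% interval of -9.89% to 6.21%. The left difference was 0.023 without left control 2 and -0.044 without left control 3, and the right one was -0.013 without right deaf 2 and -0.10 without right deaf 3. Right control had the highest mean, followed by right deaf, left control (9.57) and left deaf (9.57), and no neighbours differed beyond their spread.

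Slc6a5 (Entrez 171148) encodes GlyT2, a protein that marks glycinergic neurons and their terminals. The arrays measured its RNA, and the protein was not measured. In the right IC the control arrays were at 7.23, 5.56 and 4.65 and the deaf arrays at 5.06, 5.14 and 5.33. Right control 1 lay far above the other control arrays, and right control 3 was the lowest of all 12 arrays. In the left IC the control arrays were at 5.64, 5.24 and 5.12 and the deaf arrays at 4.81, 4.89 and 5.08. All 3 left deaf arrays thus lay below all 3 left controls. The mean levels of 3 marker lists were apart in the same way on the left, and those of all other lists overlapped there. Inhibitory neuron markers (3 of 4 measured) were at 9.29 to 9.34 in left control and 9.18 to 9.22 in left deaf arrays, oligodendrocyte markers (8 of 9) at 10.07 to 10.11 and 9.95 to 10.04, and endothelial markers (6 of 7) at 6.66 to 6.87 and 6.51 to 6.64. Within the inhibitory list only Gad1 was apart on the left, at 10.11 to 10.23 in control and 9.82 to 10.03 in deaf arrays. Gad2, at 9.63 to 9.77 and 9.61 to 9.71, and Slc32a1 overlapped. On the right, oligodendrocyte markers were at 10.12 to 10.24 in control and 9.98 to 10.08 in deaf arrays, and the inhibitory and endothelial lists overlapped. Their part in the levels of the members was not tested. Slc6a5 was the only one of the 6 genes whose left groups did not overlap, whereas 10.3% of all genes had groups apart in either direction there and 5.7% had them apart with deaf lower. The left means were 5.33 ± 0.27 (SD, n = 3) for control and 4.93 ± 0.14 for deaf, which are -0.40 apart. Because the spread was estimated over all 12 arrays, right control 1 included, the SE was 0.46 and the 95% interval -1.41 to 0.60 (limma adjusted p = 1.00). Without right control 1 the same left difference had an SE of 0.21 (limma adjusted p = 0.999). The lowest left control array, 5.12, and the highest left deaf array, 5.08, were 0.032 apart, and without left control 1 the left difference was -0.25 (SE 0.53).

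The right means of Slc6a5 were 5.82 ± 1.31 (SD, n = 3) for control and 5.18 ± 0.14 for deaf, which are -0.64 apart (SE 0.46, 95% interval -1.64 to 0.36). The sign of this difference turned with 1 array, to 0.069 (SE 0.23) without right control 1, while without right control 3 it was -1.22 (SE 0.36, limma adjusted p = 0.925). The mean over both sides was -0.52 (SE 0.32), and it was -0.17 without right control 1 and -0.81 without right control 3. Its group means ran from right control (5.82) through left control (5.33) and right deaf (5.18) to left deaf (4.93). The mean of Slc6a5 over all arrays, 5.31, lay just below the median array value, which is over all probes. Only 38.6% of the 18166 genes had a lower mean. No detection calls were used here, so how far the low values of Slc6a5 exceed background is unknown.

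**Figure D2:**
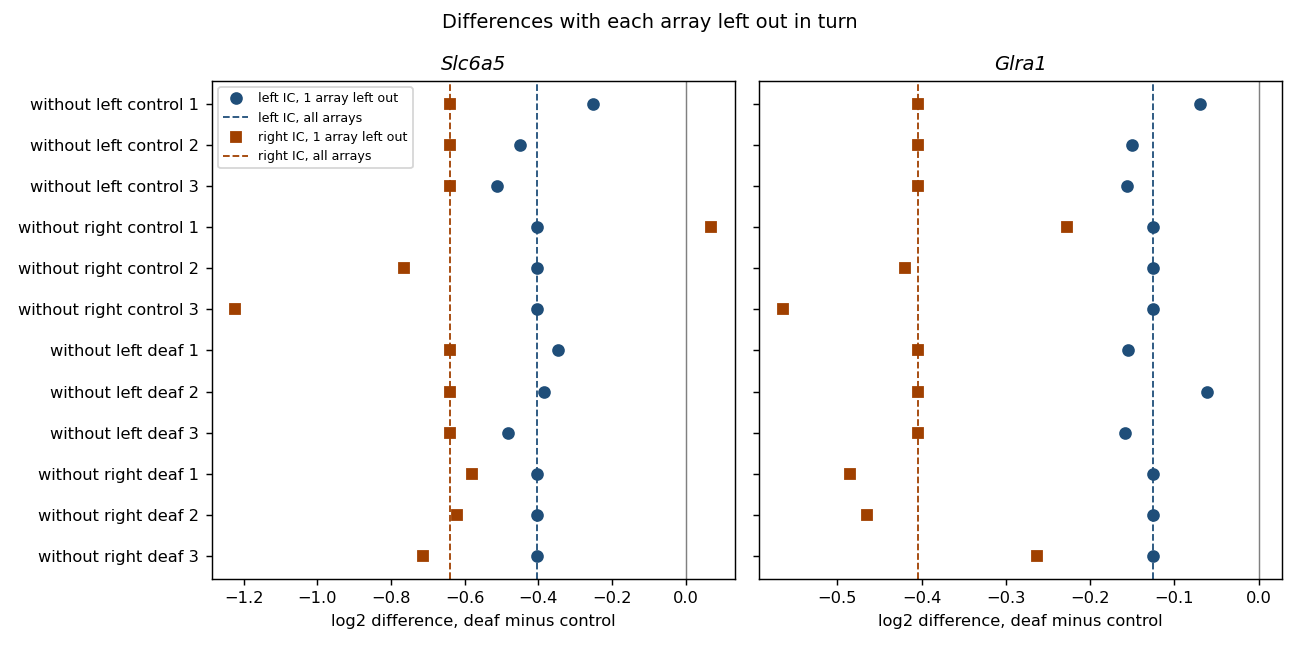
Log2 difference of deaf minus control for Slc6a5 and Glra1 after omission of each array in turn (points, left IC in blue and right IC in brown) and with all arrays (dashed lines). The right-side difference of Slc6a5 moves from -0.64 to 0.069 without right control 1 and to -1.22 without right control 3, and that of Glra1 stays below 0 throughout.

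The promoter sequences of the most and the least variable member are shown because they are the ends of the range of spread among these genes. RefSeq (build GRCr8) gave a window for 6 of the 7 listed genes, matched by symbol, with none for Glra1. The 250 bases before the listed transcript start are given, 5′ to 3′ on the strand of the gene. The window of Slc6a5 is chr1:108781303-108781552 on the plus strand and that of Glrb is chr2:168505615-168505864 on the minus strand. Capitals mark matches, on either strand, to the letters of a GC box (GGGCGG). The windows were also searched for a TATA box (TATAAA) and an E box (CAGCTG), and no matches overlapped.
Slc6a5: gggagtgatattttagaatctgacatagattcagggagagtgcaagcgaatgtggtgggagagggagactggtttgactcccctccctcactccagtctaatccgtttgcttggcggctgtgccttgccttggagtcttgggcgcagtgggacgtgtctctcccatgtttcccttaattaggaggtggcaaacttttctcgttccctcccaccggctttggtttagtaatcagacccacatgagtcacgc
Glrb: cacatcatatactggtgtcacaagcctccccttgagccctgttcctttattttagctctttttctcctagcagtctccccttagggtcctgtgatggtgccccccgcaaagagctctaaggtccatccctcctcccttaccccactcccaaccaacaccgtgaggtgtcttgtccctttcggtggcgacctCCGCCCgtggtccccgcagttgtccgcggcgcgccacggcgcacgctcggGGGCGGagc

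The window of Glrb held 2 GC boxes and 16 CpG dinucleotides, at a GC content of 61.2%. That of Slc6a5 held none of the 3 motifs and 8 CpG dinucleotides, at 52.4% GC. Of 33469 promoter windows of the same length, 30.5% held a GC box, 12.9% a TATA box and 11.97% an E box, and their median was 51.2% GC with 5 CpG dinucleotides. Gphn had the richest window of the members, with 72.4% GC, 32 CpG dinucleotides and 1 GC box. Slc6a9 had 58.4% GC and 2 GC boxes, and Glra2 had 52.4% GC with 1 GC box and 1 TATA box. Glra3, whose expression was not analysed, had 56.4% GC with 1 GC box and 1 E box. These matches describe letters in the windows and were not related to expression by a test.

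Slc6a9 (Entrez 116509) encodes GlyT1. Its control values were 10.86, 10.49 and 10.90 on the left and 10.92, 10.85 and 10.78 on the right, and its deaf values were 10.45, 10.77 and 10.68 on the left and 10.65, 10.83 and 10.95 on the right. Left deaf 1 and left control 2 were the lowest arrays, and deaf and control arrays overlapped on each side. The difference was -0.12 (SE 0.13) on the left and -0.034 (SE 0.13) on the right. Left out, left control 2 moved the left difference to -0.25 and left deaf 1 moved it to -0.025. The right difference turned to 0.047 without right deaf 1 and was -0.10 without right deaf 3. Its group means ran from right control (10.85) through right deaf (10.81) and left control (10.75) to left deaf (10.63). Of 9 markers of astrocytes, the main GlyT1 cells, 8 were measured, and their mean level lay between 9.97 and 10.18 over all arrays.

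Gphn (Entrez 64845) encodes gephyrin, which anchors glycine receptors and many GABA-A receptors and also catalyses the last steps of molybdenum cofactor synthesis. Its control values were 8.53, 8.83 and 8.52 on the left and 8.58, 8.63 and 8.45 on the right, and its deaf values were 8.62, 8.60 and 8.67 on the left and 8.69, 8.52 and 8.50 on the right. Left control 2 was the highest array, and the groups overlapped. The difference was 0.0070 (SE 0.099) on the left and 0.021 (SE 0.099) on the right. The left difference was 0.11 without left control 2 and -0.046 without left control 3, and the right one was -0.039 without right deaf 1 and 0.058 without right control 2. Averaged over both sides, deaf intensity differed by 0.979%, with a 95% interval of -9.19% to 12.3%. Its group means ran from left deaf (8.63) through left control (8.62) and right deaf (8.57) to right control (8.55). With 1 probe per gene, splice forms of gephyrin, GlyT1 or the receptor subunits could not be told apart.

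**Figure D3:**
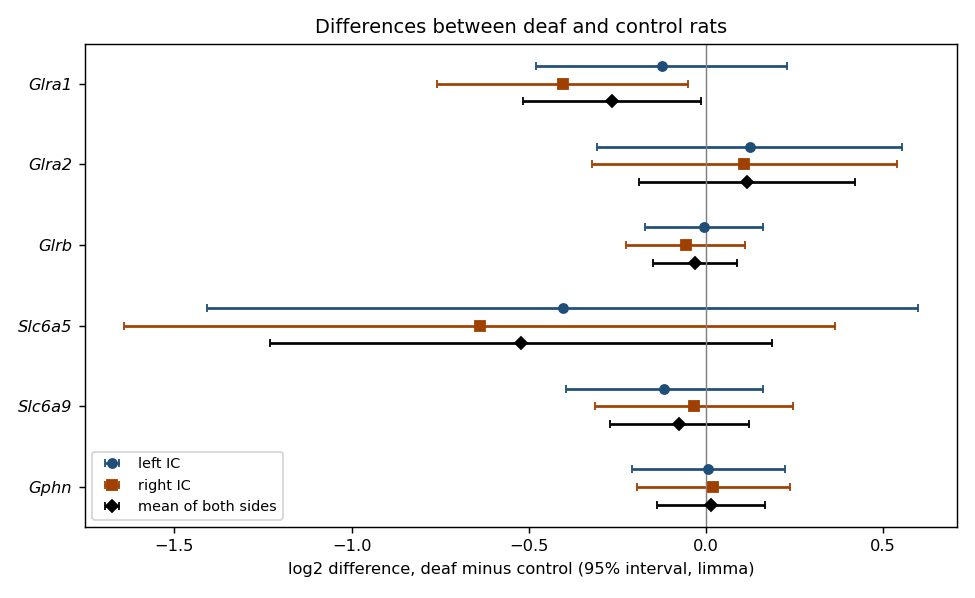
Log2 difference of deaf minus control for each gene, by side and averaged over the sides, with 95% intervals from the limma fit of all 12 arrays. The intervals of Glra1 on the right (-0.76 to -0.050) and as the mean of both sides (-0.52 to -0.014) exclude 0 before adjustment over all genes, and those of Slc6a5 are the widest.

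Between the sides, 0 of the 6 genes passed in control or in deaf rats. In control rats the left minus right difference was -0.48 (SE 0.46) for Slc6a5, -0.18 (SE 0.16) for Glra1, -0.17 (SE 0.20) for Glra2, -0.096 (SE 0.13) for Slc6a9, -0.082 (SE 0.077) for Glrb and 0.073 (SE 0.099) for Gphn, with limma adjusted p-values of 0.949 or more. Without right control 1 the side difference of Slc6a5 turned to 0.22 and that of Glra1 was -0.0036. In deaf rats left minus right was -0.25 (SE 0.46) for Slc6a5, -0.18 (SE 0.13) for Slc6a9, -0.16 (SE 0.20) for Glra2 and 0.099 (SE 0.16) for Glra1. The side by deafness interaction was 0.23 (SE 0.65) for Slc6a5 and nearer 0 for Glra2, Glrb, Slc6a9 and Gphn. An unadjusted p under 0.05 was reached by 0 of the 6 genes between sides in control rats, between sides in deaf rats and in the interaction, and by 4.95%, 3.34% and 3.42% of all genes.

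As a group, the 6 genes had a median log2 difference of -0.062 on the left and -0.046 on the right, beside medians of -0.0051 and 0.0014 over all genes. The mean was lower in deaf rats for 4 of 6 genes on each side, where 51.8% of all genes had a lower mean on the left and 49.5% on the right.

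The balance between members within an array was also examined, for 3 differences chosen after the values had been seen. Glra1 minus Glra2, the mature over the early alpha subunit, differed by -0.25 on the left and -0.51 on the right between deaf and control rats. The mean of both, -0.38, had an exact permutation p of 0.11 (two-sided, arms exchanged within sides, 400 arrangements), or 0.233 adjusted over the 3 differences, and the right difference was -0.24 without right control 1. Glra1 minus Glrb had a mean difference of -0.23 (exact permutation p = 0.155, adjusted 0.233) and Slc6a5 minus Slc6a9 one of -0.45 (exact permutation p = 0.255, adjusted 0.255), where the right difference turned to 0.068 without right control 1. The smallest p this test allows is 0.005. Within a side, with 3 arrays against 3, it cannot go below 0.1, and no side reached that value.

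Slc6a5 stood apart from every other gene on right control 1. Within groups, the SD of Slc6a5 was 0.68, beside a median of 0.15 over all genes, and 7 of 18166 genes had a larger one. Glra1, Glra2 and Slc6a9 also varied more than most genes nearest to each in mean level. Of those genes, 98.1%, 98.8% and 92% had a smaller SD, against 69.4% for Gphn. On right control 1 Slc6a5 lay 1.60 (log2) above the next highest array, left control 1 at 5.64. No other gene had so wide a gap between its highest array and the next, on any array. For Glra1 the gap on the same array was 0.38, the 44th widest on it. For the other 4 genes right control 1 was not the highest array. The 12 arrays of Slc6a5 spanned a 5.99-fold range, beside 2.06-fold for Glra1, 1.92-fold for Glra2, 1.42-fold for Slc6a9, 1.29-fold for Gphn and 1.14-fold for Glrb.

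Hox genes, which mark the hindbrain and are not known to be expressed in the midbrain, were measured as markers of neighbouring tissue, and 2 of them, Hoxa2 and Hoxa5, were highest on the same array as Slc6a5. Of 12 listed hindbrain markers 9 were measured, none had a mean above the median array value, and Hoxa2 and Hoxa5 were below its lower quartile. Hoxa5 was at 4.16 on right control 1 and at 2.73 to 3.12 on the other 11 arrays, the third widest gap on that array. Hoxa2 was at 3.98 there and at 2.51 to 3.15 elsewhere. The other 7 measured hindbrain genes were not highest on right control 1. The mean level of the whole list was 4.49 to 4.70 in right control, 4.33 to 4.45 in left control, 4.40 to 4.57 in left deaf and 4.32 to 4.45 in right deaf arrays, with right control 1 at the top. Named after their values were seen, the cholinergic genes Slc5a7 (the choline transporter) and Slc18a3 (the vesicular acetylcholine transporter) were also highest on right control 1, at 6.41 and 5.56, against at most 5.68 and 4.91 elsewhere. The tectal list was lowest on that array, with a mean level of 6.55 against 6.58 to 6.88 on the other 11. Meningeal markers were high on it too, at a mean level of 7.19, but were higher still, at 7.34, on left deaf 2, where Slc6a5 was at 4.89. Cerebellar markers had a mean level of 6.04 to 6.55 in right control arrays, highest on right control 3 where Slc6a5 was lowest, and 5.79 to 5.94 on all other arrays. Within that list Slc17a7, the vesicular glutamate transporter VGLUT1, was at 7.14 on right control 1, which was 1.14 above the next array and the second widest gap there, and Zic1 and Zic2 were highest on it as well. The part of neighbouring tissue in the levels of Slc6a5 and Glra1 was not tested, and in tissue pieces fewer cells of a type and less RNA per cell cannot be told apart.

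**Figure D4:**
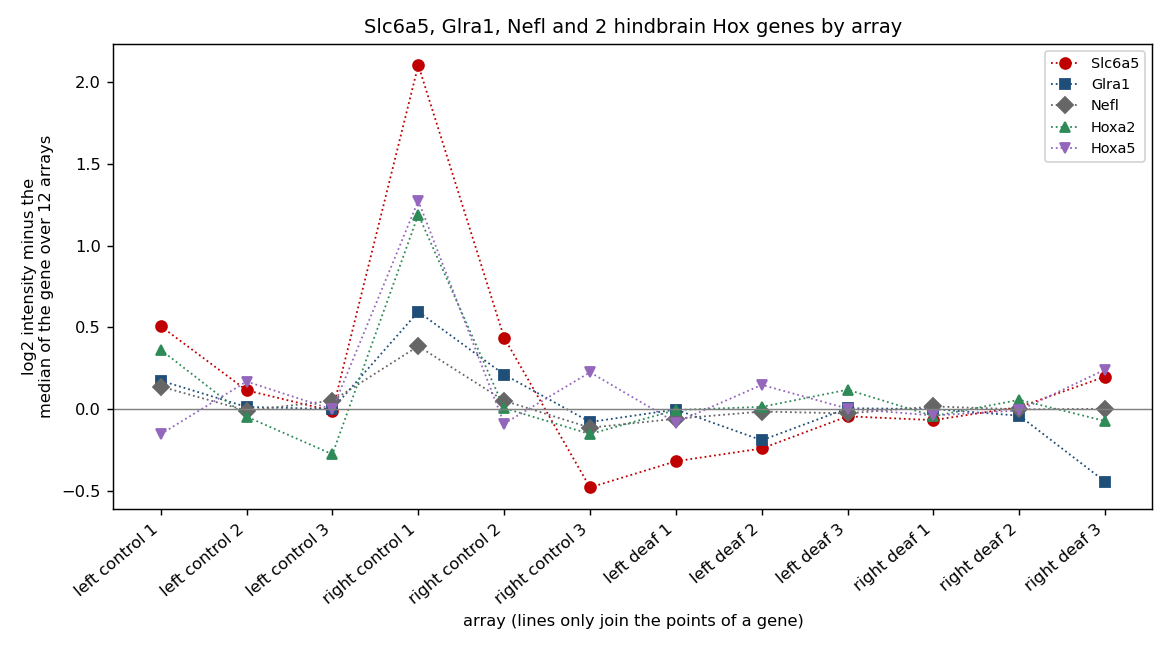
Log2 intensity of Slc6a5, Glra1, the neurofilament gene Nefl and the hindbrain genes Hoxa2 and Hoxa5 on each array, minus the median of that gene over 12 arrays. All 5 genes are highest on right control 1, and Slc6a5 is lowest on right control 3. Nefl was the gene most correlated with Slc6a5 among 9003 searched, and the other measured hindbrain genes were not highest on right control 1. The shared peak thus follows in part from the choice of genes.

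Over the 12 arrays the 15 pairs of members gave 0 correlations with an adjusted p under 0.05 (permutation test with 100000 resamples, two-sided, Benjamini-Hochberg over the 15 pairs), and 3 pairs had an unadjusted p below it. Glra1 and Slc6a5 had r = 0.77 (permutation p = 0.0129, adjusted 0.0953) and rho = 0.63 (permutation p = 0.0308, adjusted 0.154). Right control 1 was highest for both, and without it r was 0.35. Without the 2 arrays farthest in Glra1, right control 1 and right deaf 3, r was 0.84, and with values centred on their group means it was 0.73. Slc6a9 and Gphn ran in opposite directions, with r = -0.72 (permutation p = 0.00843, adjusted 0.0953) and rho = -0.67 (permutation p = 0.0209, adjusted 0.154). This relation held at r = -0.65 without left deaf 1 and left control 2, the arrays farthest in Slc6a9, and at -0.69 with values centred on their group means. Glra2 and Slc6a9 had r = 0.66 (permutation p = 0.0191, adjusted 0.0953) and rho = 0.48 (permutation p = 0.123, adjusted 0.369), which rested on left control 2 and left deaf 1, since r was 0.024 without them. The 2 transporter genes had r = 0.44 (permutation p = 0.158, adjusted 0.473) and rho = 0.64 (permutation p = 0.0279, adjusted 0.154). The remaining pairs had r between -0.51 and 0.20, and the beta subunit and gephyrin, which bind each other at the synapse, had r = 0.023 (permutation p = 0.945, adjusted 0.979) and rho = -0.014 (permutation p = 0.975, adjusted 0.975). No scan date or slide was available in the labels, so batches could not be examined.

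**Figure D5:**
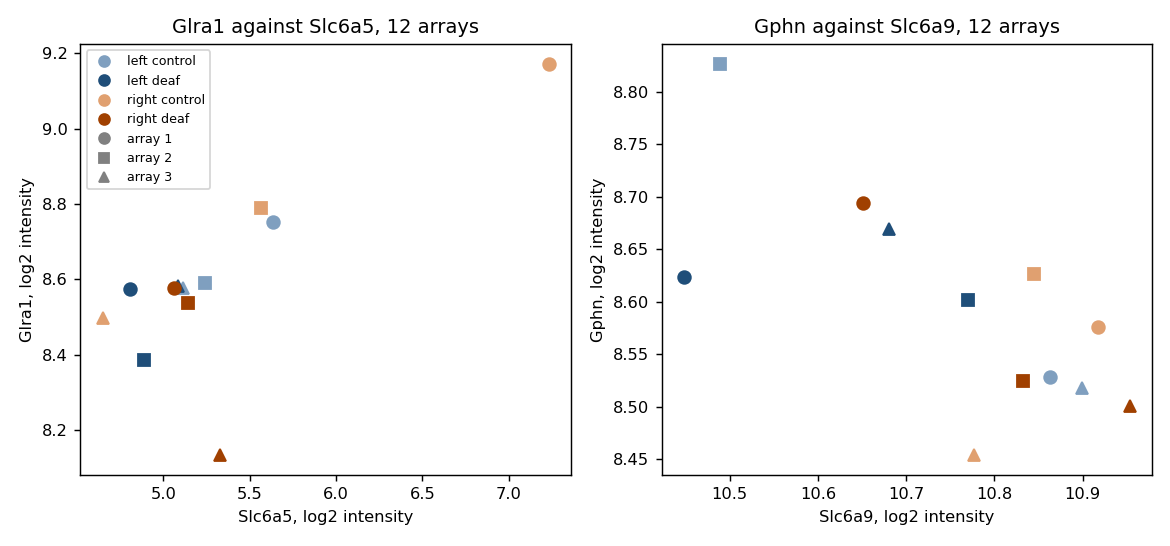
Log2 intensity of Glra1 against Slc6a5 (left) and of Gphn against Slc6a9 (right) on the 12 arrays, coloured by group, with symbols for the array number. In the left panel right control 1 lies alone at the upper right, and in the right panel left control 2 and left deaf 1 lie at the low end of Slc6a9.

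Among the 9003 named genes above the median level, those with the most similar pattern over the 12 arrays were taken as a description, with no test, since they are the highest of many correlations. For Slc6a5 these were Nefl (neurofilament light chain, found in large myelinated axons; r = 0.97, rho = 0.83), Tmem229b (r = 0.92, rho = 0.84) and Chp1 (r = 0.92, rho = 0.69). Nefl was at 11.03 on right control 1 and at 10.54 to 10.79 elsewhere, and without that array its r with Slc6a5 was 0.87. For Glra1 they were Ppp1r14a (r = 0.91, rho = 0.74), Eya1 (r = 0.90, rho = 0.60) and Ulk2, an autophagy kinase gene (r = 0.89, rho = 0.85). For Glra2 they were Ehd3 (r = 0.95, rho = 0.83), Tppp, an oligodendrocyte tubulin-binding protein gene (r = 0.94, rho = 0.88), and Elovl6 (r = 0.94, rho = 0.89), all with their lowest value on left control 2, where Ehd3 was at 7.49 against 8.15 to 8.96 elsewhere. For Glrb they were Asah1, the acid ceramidase gene (r = 0.96, rho = 0.96), Yme1l1 (r = 0.90, rho = 0.96) and C6h14orf28 (r = 0.88, rho = 0.88). For Slc6a9 they were Dnajb12 (r = 0.94, rho = 0.93), Abhd4 (r = 0.92, rho = 0.71) and Pop4 (r = 0.92, rho = 0.85). For Gphn they were Vamp7, a vesicle fusion gene (r = 0.94, rho = 0.95), Uqcrc2 (r = 0.89, rho = 0.86) and Tanc2, a postsynaptic scaffold gene (r = 0.88, rho = 0.80).

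Partner genes of glycinergic synapses were described from a list of 47, of which 41 were measured. None passed the adjusted threshold in any comparison (smallest limma adjusted p = 0.934). On the left 24 of 41 had lower means in deaf rats and 17 higher, with a median of -0.044, and on the right 17 were lower and 24 higher, with a median of 0.033. The 10 measured genes of glycine and serine metabolism had a median of -0.14 on the left, with 8 of 10 lower, and -0.016 on the right, with 6 of 10 lower. Phgdh, the first enzyme of serine synthesis from which glycine is made, had the smallest unadjusted p of the list on the left. The values of Phgdh were 6.52, 6.33 and 6.67 on the left control arrays and 6.05, 5.88 and 6.08 on the left deaf arrays. These did not overlap, as was so for 10.3% of all genes on the left. Wnk2, Gatm and Kif5c of the list were apart there too. Its left difference was -0.51 (SE 0.18) and its right difference was 0.22 (SE 0.18), an interaction of -0.73 (SE 0.25, limma adjusted p = 1.00). Gatm, which consumes glycine in creatine synthesis, was at -0.20 (SE 0.10) on the left and -0.067 (SE 0.10) on the right, and Mocs3, a molybdenum cofactor gene, was at -0.27 (SE 0.15) and -0.18 (SE 0.15). Wnk2, a kinase gene that regulates chloride transport, was at 0.19 (SE 0.077) on the left and 0.071 (SE 0.077) on the right.

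On the right, the NMDA receptor subunit gene Grin1, whose product uses glycine as a co-agonist, was at 0.18 for deaf minus control (SE 0.079, limma adjusted p = 1.00), and the serine racemase gene Srr at 0.28 (SE 0.14). Both had non-overlapping arrays there, as did Mocs2, Mtor, Pfn1 and Pfn2 of the list and 7.48% of all genes. On the left Grin1 and Srr were at -0.044 (SE 0.079) and -0.048 (SE 0.14). Mocs2 was at 0.18 (SE 0.091) on the right and Dao, which degrades D-serine, at -0.33 (SE 0.18). Dao was highest on right control 1, at 6.29, with the other right controls at 5.75 and 5.46. Its right deaf arrays were at 5.48, 5.54 and 5.49. The 10 measured gephyrin partner genes had a median of 0.026 on the left, with 2 of 10 lower, and 0.074 on the right, with 1 of 10 lower. Nlgn2, the adhesion protein gene of inhibitory synapses, was at 0.098 (SE 0.10) and 0.076 (SE 0.10). Slc32a1, whose transporter loads both glycine and GABA into vesicles, was at -0.11 (SE 0.10) on the left and -0.14 (SE 0.10) on the right. Slc12a5, the potassium-chloride cotransporter that keeps glycine responses inhibitory, was at 0.032 (SE 0.087) and -0.080 (SE 0.087). Glra4, the remaining alpha subunit gene, was at 0.081 (SE 0.17) on the left and 0.20 (SE 0.17) on the right.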

How the data were processed

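Per the labels, fragmented single-stranded cDNA from total RNA was biotin-labelled and read on 1-colour Affymetrix arrays. The deposited values are log2 intensities with the same median, 5.34, on each of the 12 arrays. How the authors normalized them, the software and the genome build were not stated in the labels, and 3 arrays a group limit the precision.

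Of 29489 probes, 18511 carried 1 gene symbol, and the brightest probe per gene left 18166 genes. limma 3.58.1 in R 4.3.3 was fitted to 4 group means over all 12 arrays, with 8 residual and 3.79 prior degrees of freedom and 6 contrasts. Tests were two-sided, adjusted by Benjamini-Hochberg over all genes at a threshold of 0.05, and the fit was tested on simulated data. SD is the spread of 3 arrays, SE that of the fitted difference. Correlations were computed with NumPy 2.4.6. All members were named, and of the partner list the up to 4 genes of smallest unadjusted p per side, beside 4 synaptic genes (Nlgn2, Slc32a1, Slc12a5 and Glra4) named after their values were seen. Genes of similar pattern were the 3 of highest r per member. The members and lists were chosen with earlier results of these data known. Alternatives were normalization, centring, a level filter, other probe rules, a variance trend, array weights, only the groups compared, a replicate block, a threshold of 0.1 and leaving out each array.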

Additional observations from a re-analysis of the deposited data

How the results depend on the processing

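No member passed the adjusted threshold in any of 738 refitted differences (36 differences under the alternatives that could be fitted; smallest limma adjusted p = 0.706). The direction was the same in 700 of these and turned in 38, among them Slc6a5 on the right without right control 1. Slc6a5 lies below the median level, so the filter gave no value for it. Counts of genes over all genes moved from 0 to 1 or 2 under some settings, none of them a member. For deaf minus control on the left, Vgf passed among genes above the median level (1 gene), with a variance trend and robust estimation (1 gene), and with 1 array left out the count was 0 to 1. For left minus right in deaf rats the count was 1 among genes above the median level (Vgf) and 2 with the variance trend (Vgf and Or52a5b). For the mean of both sides it was 0 to 1 with 1 array left out (Clec2d2, without right control 3). At a threshold of 0.1 the interaction had 1 gene (Mirlet7f2). Same-numbered arrays of different groups had deviations from their group means that correlated at -0.019 on average, with 3 of 18 pairs above 0.1. Pairs of other numbers averaged 0.0097, with 5 of 36 above 0.1. Only left and right arrays of the same arm could share rats. Their same-numbered pairs were at 0.10, -0.013 and 0.057 in control rats and 0.15, -0.056 and -0.043 in deaf rats. So few pairs cannot decide whether rats were shared, and the main fit did not pair arrays by number. With the replicate block 1 gene (RGD1565183) passed between the sides of control rats and 1, the same gene, in the interaction. With that block Glra1 on the right kept its difference of -0.40 at an SE of 0.13. The number of member pairs with an adjusted correlation p under 0.05 was 0 to 1 with 1 array left out (1 without left deaf 1 and 1 without right deaf 3). Quantile normalization moved no count. The causes of these differences were not tested.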
